A study of Mus musculus with 8 samples.

Results

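The 3' untranslated region (3'UTR) is the stretch of a messenger RNA between the stop codon and the end of the transcript. DNA methylation was examined at 33537 autosomal cytosines in the DNA that encodes these stretches, out of 2130064 cytosines measured on chromosomes 1 to 19, X and Y (1.57%). A cytosine was taken when it lay in 3'UTR exon sequence of a curated RefSeq transcript on mm10, outside the coding sequence of every annotated transcript and more than 1 kb from every transcription start site (TSS). Of 38431 covered autosomal cytosines in 3'UTR exons, 2254 were removed because they also lay in coding sequence and 2640 because they lay within 1 kb of a TSS. The remaining cytosines came from 3907 genes, 21.0% of the 18595 autosomal genes with a curated 3'UTR, and covered 6.37% of the CpG cytosines of all such 3'UTRs. They belonged to 24158 CpGs, since the cytosines of the 2 strands of a CpG were counted separately, and 5 of them were not in a CpG of the reference. The middle cytosine lay 493 bases after the stop codon and 960 bases before the transcript end, in a 3'UTR of 1850 bases.

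Reduced representation bisulfite sequencing (RRBS), in which DNA is cut with MspI at CCGG before bisulfite conversion, was performed on cells of C3H/HeN F1 male mice at postnatal day 6. From gestational day 8 to 18 the dams drank tap water (control) or 85 ppm sodium arsenite in water (arsenic), and no other difference between the groups is given. The cells were separated with magnetic beads and an antibody to CD49f (Itga6) and are labelled type A spermatogonia, the mitotic germ cells that include the stem cells of spermatogenesis. Each of 4 control and 4 arsenic samples was a pool of 8 testes from 4 mice, so that individual mice cannot be told apart. Between 1430537 and 2022057 reads per sample fell on 3'UTR cytosines, and the median coverage of a cytosine was 31 to 45 reads.

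A 3'UTR carries binding sites for RNA-binding proteins and microRNAs, which set how long a messenger RNA lasts and how well it is translated, and its end is made by cleavage and polyadenylation. As DNA it lies inside the body of a gene, where CpGs are usually methylated in mammalian cells, apart from CpG-dense stretches. In male germ cells the promoters of maternally imprinted genes and of germline genes are known to be unmethylated. In these samples the promoters of 10 of 12 germline genes that had at least 3 cytosines averaged 81.2% methylation, from 78.3% to 83.8% over the samples. Single germline genes ran from 60.7% to 94.9%. Promoters of 11 of 14 maternally imprinted genes averaged 51.1%, from 46.8% to 56.1% over the samples. Single imprinted genes ran from 3.20% to 76.7%, so that not every one was methylated. The germline promoters and the mean of the imprinted ones go against the label, and the cells are therefore called CD49f-selected cells here. The paper bases the label on higher Itga6 and Gfra1 expression than in fetal germ cells and on methylation profiles that clustered apart. The control samples ranged from 50.2% to 56.1% and the arsenic samples from 46.8% to 55.0% at the imprinted promoters, and the part of the cell mixture in the group differences was not tested.

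Single 3'UTR cytosines with large differences between the groups are shown first, as 29 bases of the mm10 reference read 5′ to 3′ on the strand of the measured cytosine. The capitals mark the CpG, and its C is the base measured. The first 4 were lower in the arsenic samples and the next 4 were higher.
Bcat1, chr6:144996197-144996225, plus strand: agagagatgcagccCGgtggcagagtgca
Pheta1, chr5:121853801-121853829, plus strand: aggagacaggcctcCGactgattccatgc
Pip4k2b, chr11:97715411-97715439, minus strand: ttagcacatctcagCGgctggtcagaaca
Cbarp, chr10:80131165-80131193, plus strand: tgggatttgggggcCGtgtacccatgcac
Ccer1, chr10:97694698-97694726, plus strand: agggaactgagaaaCGaaatggaaccgat
Stc2, chr11:31359897-31359925, plus strand: gacagttacacggcCGattcaatacaaca
Habp2, chr19:56320704-56320732, plus strand: acccaggtgtcatcCGcccggtcatctca
Lhfpl4, chr6:113171839-113171867, minus strand: gggaccctgaaagcCGggattttatagcc
The CpGs of Bcat1 and Lhfpl4 lie in a CCGG, the site cut by MspI, and the other 6 do not. Their values are given with the group comparison of single cytosines.

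DNA of 3'UTRs was mostly methylated in the CD49f-selected cells. The mean level, averaged over cytosines, was 66.3%, 66.3%, 66.4% and 66.1% in control samples 1 to 4 and 66.1%, 65.9%, 65.7% and 66.0% in arsenic samples 1 to 4. Every arsenic sample was below every control sample, although by small amounts. The control mean was 66.3% ± 0.109 (SD, n = 4) and the arsenic mean 65.9% ± 0.153 (SD, n = 4), a difference of -0.339 percentage points (two-sided exact permutation test over 70 assignments, p = 0.0286, the smallest that 4 against 4 samples can give). With each gene counted once the difference over 3058 genes was -0.360 points (p = 0.0286, exact permutation test). When control sample 1, 2 or 3 or arsenic sample 2 or 3 was left out, the exact permutation p was 0.0571, with differences from -0.331 to -0.274 points. When methylated reads were instead divided by all reads, which gives deep cytosines more weight, the groups overlapped and the difference was -0.571 points (p = 0.0857, exact permutation test).

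Sequence outside 3'UTRs differed between the groups as well. The 1470426 other autosomal cytosines more than 1 kb from a TSS averaged 69.9% ± 0.0690 in controls and 69.5% ± 0.181 in arsenic samples (SD, n = 4 each), a difference of -0.386 points. The gap between 3'UTRs and those cytosines changed by 0.0473 points between the groups, and the groups overlapped (p = 0.286, two-sided exact permutation test). Introns differed by -0.513 points and the 5 kb downstream of genes by -0.407 points, each without overlap of the groups. Coding sequence differed by -0.203 points and its groups overlapped (p = 0.229, exact permutation test).

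**Figure D1:**
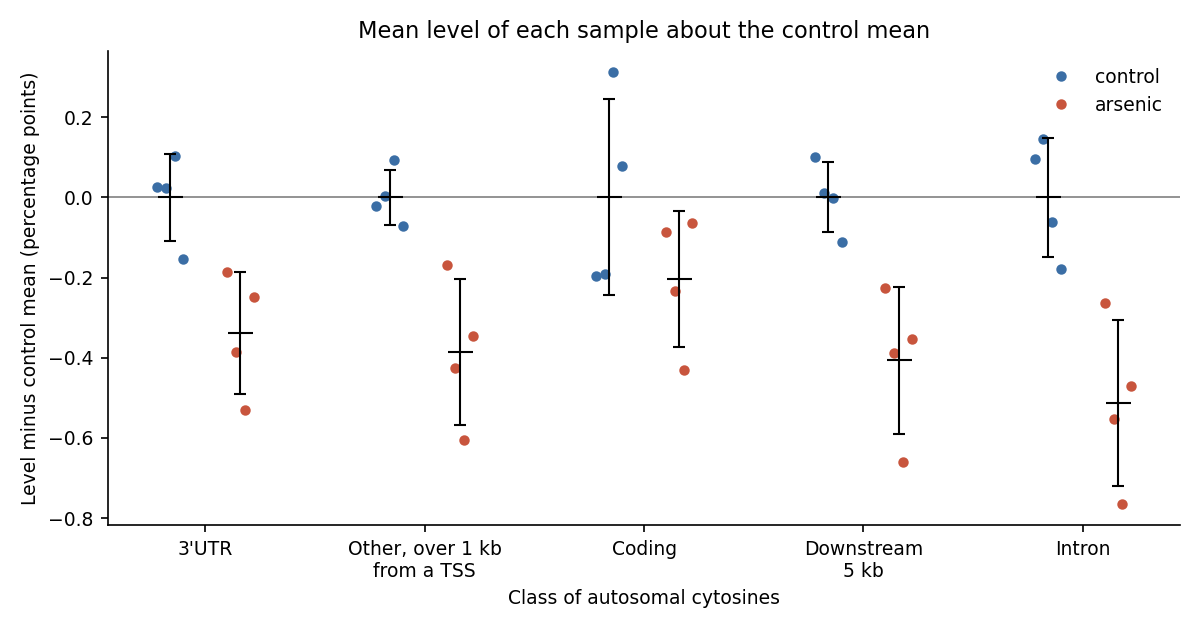
Mean methylation level of each sample, as percentage points from the control mean, for 3'UTR cytosines and 4 other classes of autosomal cytosines. Points are samples, bars are the group mean ± SD (n = 4); the arsenic samples lie below all control samples in 3'UTRs (mean difference -0.339 points) and in every other class drawn except coding sequence.

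Among the features compared, the largest differences in level went with the number of CpGs around a cytosine. Density was counted as the reference CpGs within 100 bases either side, the cytosine's own CpG included. At most 2 CpGs went with a level of 72.8% ± 0.458 (3322 cytosines), 3 to 5 with 72.1% ± 0.276 and 6 to 9 with 68.5% ± 0.165 (SD over 8 samples). Above that the level dropped, to 46.2% ± 0.322 at 10 to 14 CpGs, 17.7% ± 0.394 at 15 to 19 and 8.47% ± 0.492 at 20 or more, a class of 425 cytosines in 53 genes. The sparsest and the densest class differed by 64.3 points, in the same direction in 8 of 8 samples (exact sign-flip test over samples, p = 0.0078, adjusted p = 0.0078 over 19 contrasts). This p is the smallest that 8 samples can give, it was the same for each of the 19 contrasts of levels, and it measures the spread between samples for a fixed set of cytosines, not the spread between genes. At 10 or more CpGs, 3'UTR cytosines were at 37.1% ± 0.286 and other cytosines more than 1 kb from a TSS at 55.0% ± 0.225, a difference of -17.9 points. At no more than 5 CpGs the same 2 sets were at 72.2% and 72.7% and differed by -0.508 points. The 2 sets were not matched for distance to a TSS. 3'UTR cytosines with 10 or more CpGs were at 18.7% over 1 to 2 kb from a TSS and 18.3% over 2 to 5 kb. They were at 54.4% over 5 to 20 kb, 59.2% over 20 to 50 kb and 57.1% beyond 50 kb. The median distance to the nearest TSS was 10060.5 bases in the sparsest density class and 3416 in the densest.

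**Figure D2:**
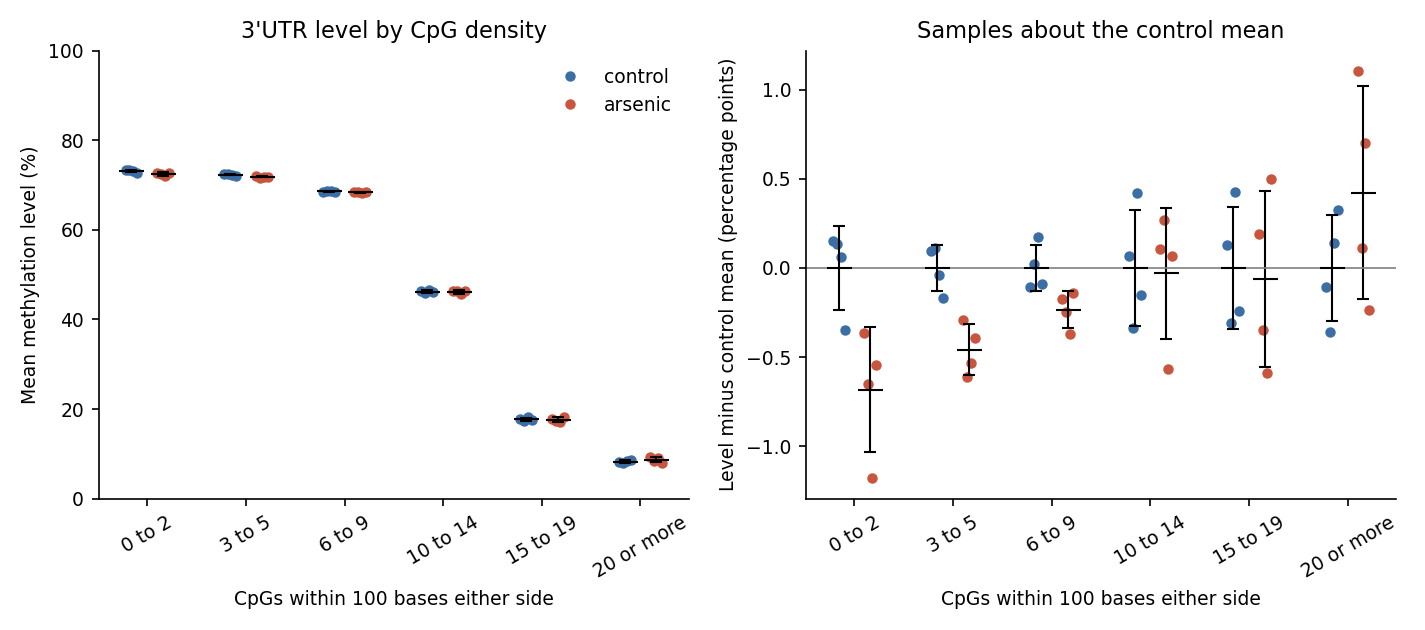
Left, mean methylation level (%) of 3'UTR cytosines by the number of CpGs within 100 bases either side; right, the same values as percentage points from the control mean. Points are samples, bars are the group mean ± SD (n = 4); the level falls from 72.8% in the sparsest class to 8.47% in the densest, and the groups separate only in the 3 classes with fewer than 10 CpGs.

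Over all 3'UTR cytosines, the level was higher farther from the stop codon. In the first 100 bases after the stop codon it was 60.8% ± 0.210 (6135 cytosines in 1843 genes), and beyond 2000 bases it was 73.8% ± 0.396 (4816 cytosines in 588 genes), with a steady order between them of 63.0%, 63.5%, 66.99% and 69.8%. Near and far differed by -13.1 points, from -13.6 to -12.5 over the samples. Density moved with this order. Near the stop codon 28.1% of the cytosines had 10 or more CpGs around them, and beyond 2000 bases 4.53% had. The distance to the nearest TSS moved with it as well, with a median of 7002 bases near the stop codon and 15110.5 beyond 2000 bases. Only 3'UTRs longer than 2000 bases reach the far class, so the classes hold different genes. Near and far were not compared within genes. Within the cytosines with at most 5 CpGs, near and far were at 73.3% and 74.2% and differed by -0.918 points, and within those with 6 to 9 CpGs they differed by -4.55 points. Within those with 10 or more CpGs the difference was -33.0 points, with only 218 cytosines in the far class. These are differences between the nearest and the farthest class, and within a density the classes between them followed no steady order. From near to far they were at 73.3%, 71.2%, 71.7%, 71.1%, 72.1% and 74.2% with at most 5 CpGs, and at 69.5%, 65.9%, 63.1%, 67.6%, 72.6% and 74.01% with 6 to 9.

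By distance from the transcript end the farthest class was the highest. Within 100 bases of the end the level was 65.2% ± 0.179 and more than 2000 bases from it 71% ± 0.271, a difference of -5.82 points in 8 of 8 samples. Between them it was 63.7%, 63.7%, 64.2% and 65.7%, so that the last 100 bases lay above the 3 classes of 100 to 1000 bases. The median distance to the nearest TSS was 6914 bases in the nearest class and 14173 in the farthest, which only 3'UTRs longer than 2000 bases reach. Among cytosines with at most 5 CpGs the nearest class was at 70.7% and the farthest at 75.2%, a difference of -4.51 points. At 6 to 9 CpGs it was -10.01 points, and at 10 or more -1.30 points. At 10 or more CpGs the nearest class, at 41.3%, lay above the 4 middle ones (34.8%, 33.7%, 39.1% and 32.3%).

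**Figure D3:**
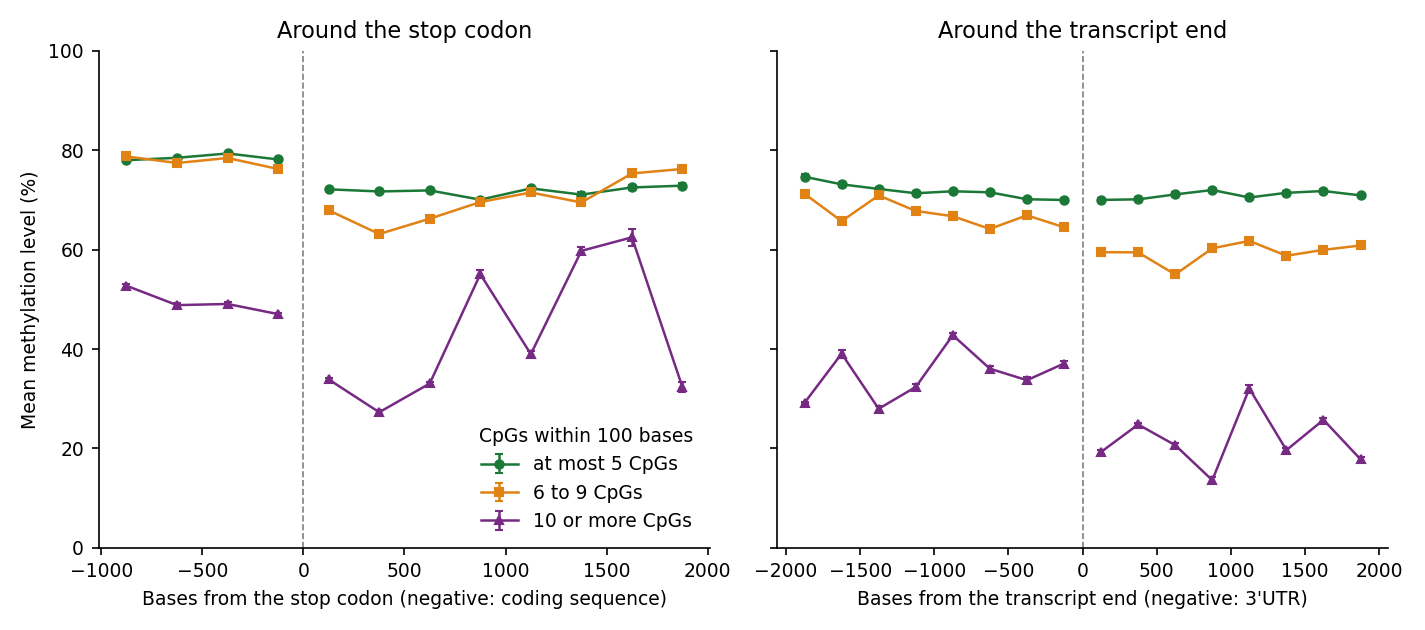
Mean methylation level (%) in bins of 250 bases around the stop codon (left) and the transcript end (right), by the number of CpGs within 100 bases either side. Points are means of 8 samples and bars their SD; at each density the first bin after the stop codon lies below the last bin of coding sequence, 72.1% against 78.1% at no more than 5 CpGs and 33.9% against 47.0% at 10 or more.

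Counted gene by gene, the 3'UTR was on average below the coding sequence and above the flank. In the 2189 genes with at least 3 cytosines in each, the 3'UTR averaged 67.9% and the coding sequence 70.2%, a difference of -2.26 ± 0.116 points (SD over 8 samples). The 3'UTR was higher than the 5 kb downstream of the same 1107 genes, 67.8% against 65.2%, by 2.60 ± 0.184 points. It was also higher than the introns of the same 2453 genes, 71.3% against 68.1%, by 3.21 ± 0.137 points. Averaged over cytosines of all genes the order was the opposite, with introns at 70.7% and 3'UTRs at 66.1%. All 3 differences within genes had the same sign in 8 of 8 samples (exact sign-flip test, p = 0.0078). These averages cover large differences in single genes in both directions. The 3'UTR was at least 30 points below the coding sequence in 228 genes and at least 30 points above it in 164, while 1170 genes lay within 10 points. Across the 2189 genes, which are not independent replicates, the correlation of both levels was 0.65.

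The genes with large gaps named here were picked after their values were seen, among 658 genes with at least 10 cytosines in each stretch. Zfp423, a zinc finger transcription factor, had a 3'UTR at 12.6% ± 1.48 and coding sequence at 89.1% ± 1.79 (SD over 8 samples). Rtn2, a reticulon of the endoplasmic reticulum, had them at 0.664% ± 0.479 and 71.8% ± 4.00. Ky, a muscle protein gene, had 16.9% ± 4.76 against 87.6% ± 1.05, and Mfsd12, a lysosomal transporter gene, 6.005% ± 3.43 against 76.1% ± 2.64. The opposite pattern was present in Jmy, a coactivator of p53, with 89.2% ± 1.64 in the 3'UTR and 1.43% ± 0.546 in coding sequence. Onecut2, a homeobox transcription factor, had 86.9% ± 1.15 against 1.90% ± 0.965, and Socs7, of the suppressor of cytokine signalling family, 82.2% against 1.04%. In Dmrt3, a transcription factor of the DM domain family, they were at 82.2% and 7.07%. In each of these 8 genes the gap was many times the spread between samples.

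Other features of the sequence moved the level less. Cytosines in a CCGG were at 71.1% and the rest at 64.7%, a difference of 6.41 points. Of those in a CCGG 5.27% had 10 or more CpGs around them, a density at which 3'UTR cytosines were at 37.1%. This contrast was not made within a density. The 1866 cytosines in soft-masked (repeat) sequence were at 69.3% and the unmasked ones at 65.9%. The sense strand exceeded the antisense strand by 0.230 points. The distance to the nearest TSS went with a larger change, from 41.1% at 1 to 2 kb (2707 cytosines) to 77.5% beyond 50 kb. The nearer class lay just outside the limit that defined the set. Between the same 2 classes the level went from 59.9% to 77.7% at no more than 5 CpGs and from 39.5% to 81.3% at 6 to 9. At 10 or more CpGs it went from 18.7% to 57.1%, with 127 cytosines in the farther class.

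Taken gene by gene, the 3058 3'UTRs with at least 3 cytosines had a median level of 80.1%. At 80% or more lay 1533 of them (50.1%), and 226 (7.39%) lay below 10%. The unmethylated 3'UTRs had a median of 10 CpGs around a cytosine against 5 for all, were shorter (median 1015 against 1670 bases) and lay nearer to a TSS (median 2546 against 8791 bases). The remaining 1299 lay between these levels.

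**Figure D4:**
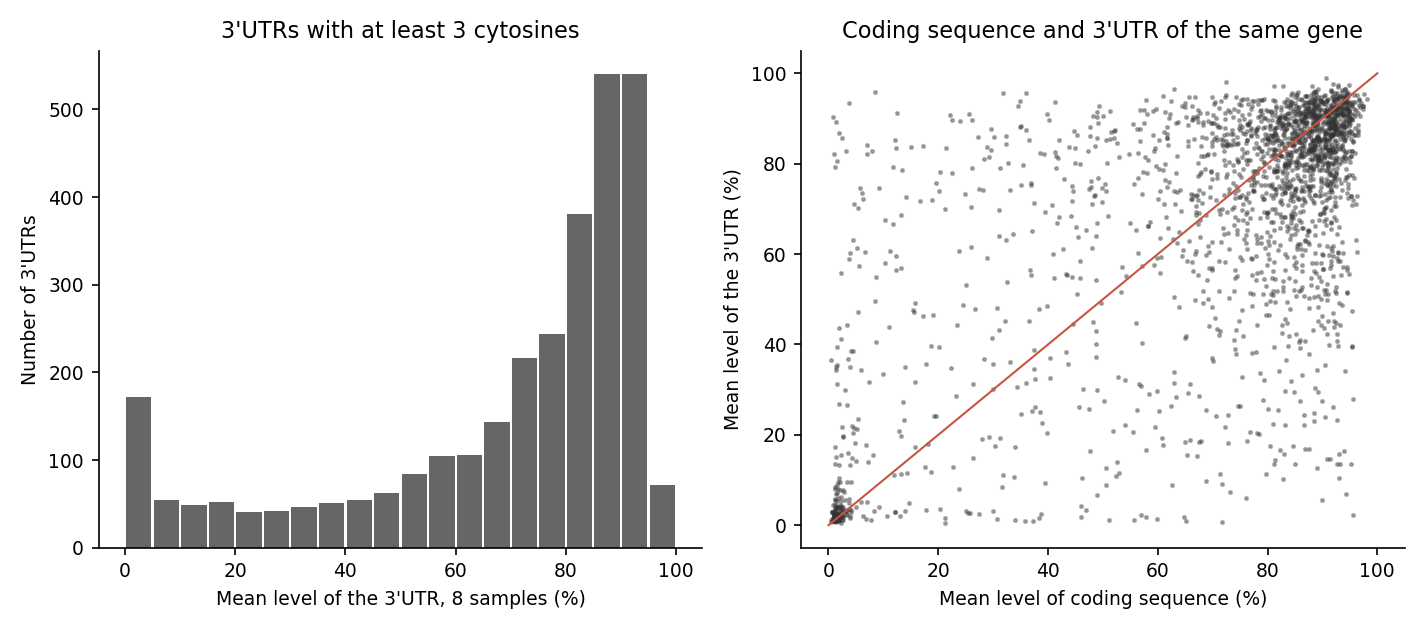
Left, number of 3'UTRs with at least 3 cytosines by their mean level over 8 samples (%), in bins of 5 points; right, mean level (%) of the 3'UTR against that of coding sequence for 2189 genes, 1 point a gene, with the line of equal levels. At 80% or more lie 1533 3'UTRs (50.1%), 226 lie below 10% and 1299 lie between.

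Genes with many cytosines fell at both ends. Isl2, a LIM homeobox transcription factor, had 72 cytosines at 3.82% ± 1.02 (SD over 8 samples), and Pou3f1, a POU domain transcription factor, had 61 at 2.03% ± 0.762. Ctdspl, a small phosphatase, had 70 at 90.8% ± 0.884. The podosome scaffold gene Sh3pxd2a, with 63 at 73.3%, and Crtc3, a coactivator of CREB with 60 at 55.9%, lay between. Among the 369 genes with at least 20 cytosines, low levels were those of Rtn2 (0.664%), Gm13889 (0.906%), Ier5 (1.13%) and Six2 (1.14%). The highest were those of Tpx2, a spindle assembly factor (96.4%), the palmitoyltransferase gene Zdhhc23 (95.9%), 9130019O22Rik (95.6%), the mannosyltransferase gene Alg2 (95.5%) and Tyw1, which acts in tRNA modification (94.9%).

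Six2, Isl2 and Pou3f1 are developmental transcription factors. After this was seen, 3'UTRs of such families (Hox, Pax, Sox, Pou, Lhx, Dlx, Nkx, Tbx, Fox, Irx, Isl, Pitx, Gata, Zic, Meis, Otx, Emx, Gsx, Msx, Barhl, Klf and that of Six2) were collected by symbol. Of 80 covered, 42 (52.5%) lay below 10%, against 7.39% of all 3'UTRs, and their median was 8.23% against 80.1%. Sox11 was at 1.35% over 50 cytosines and Pitx1 at 4.25% over 58. At 80% or more lay 14 of the 80. The list was chosen from the values and is a description.

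Genes of spermatogonia were at all levels. Of 30 listed, 12 had at least 3 cytosines in the 3'UTR, with a median of 69.1%. Gfra1, the GDNF receptor of stem cells, was at 89.7% ± 1.98, and Rarg, a retinoic acid receptor, at 50.5% ± 3.26. Neurog3, a transcription factor of early differentiating spermatogonia, was at 5.02% ± 0.870 (SD over 8 samples). Genes that act on 3'UTRs were covered as well, with a median of 58.9% over 8 of 31 genes of binding and decay. Upf1, the helicase of nonsense-mediated decay, was at 56.7% over 57 cytosines, Khsrp, which binds AU-rich elements, at 79.8%, and the messenger RNA binding protein gene Igf2bp1 at 60.8%. Zfp36l2, which promotes decay through AU-rich elements, was at 1.38% ± 0.733. Of 21 genes of the cleavage and polyadenylation machinery only Cstf1 (42.3% ± 9.55) and Cpsf7 (82.5% ± 3.83) were covered by at least 3 cytosines. The 4 covered genes of the DNA methylation machinery were all above 80%, with the de novo methyltransferase gene Dnmt3a at 85.7%, the oxidases Tet1 and Tet3 at 86.9% and 87.2%, and the methyl-CpG binding protein gene Mbd2 at 93.4%. The 5 covered imprinted genes, of 30 listed, had a median of 63.8%, where Cdkn1c was at 48.8% ± 6.52, Dlk1 at 54.8% ± 3.19, Gnas at 68.3% ± 5.69 and Grb10 at 90.3% ± 3.35.

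The group difference was also taken by position and density. Of 18 classes of distance from the stop codon, distance from the transcript end and density, 17 had a lower mean in the arsenic samples, and in 6 the groups did not overlap. None passed adjustment over the 18 classes (two-sided exact permutation tests, lowest adjusted p = 0.0857), and the classes share cytosines. The 6 were the stretch over 100 to 250 bases after the stop codon, 2 classes of distance from the end (over 500 to 1000 bases and over 2000) and the 3 lowest densities. By density the difference went from -0.684 points at up to 2 CpGs through -0.458 and -0.233 to -0.0297 at 10 to 14, -0.0619 at 15 to 19 and 0.421 at 20 or more. In the sparsest class the controls were at 73.3%, 73.3%, 73.2% and 72.8% and the arsenic samples at 72.8%, 72.5%, 72.0% and 72.6%. Arsenic sample 3 was lowest, and the lowest control and the highest arsenic sample were almost equal.

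By level, partly methylated cytosines carried much of the difference. The 4133 cytosines with a mean level of 10% to 50% over all samples were 12.3% of the set and carried 46.6% of the summed difference. They averaged 29.1% in controls and 27.8% in arsenic samples, a difference of -1.28 points without overlap of the groups (p = 0.0286, exact permutation test, adjusted p = 0.0952 over 5 level classes). Cytosines at 90% or more differed by -0.112 points and those below 10% by -0.174 points, with overlapping groups.

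At single cytosines, differentially methylated cytosines (DMCs) were called by logistic regression on the read counts with q of at most 0.01 and at least 10 points of difference, where a hypoDMC is lower and a hyperDMC higher in the arsenic samples. In 3'UTRs 143 hypoDMCs (0.426%) were called, against 0.323% of all cytosines, and 95 hyperDMCs (0.283%), against 0.228%. The 238 DMCs were 0.710% of 3'UTR cytosines, and other autosomal cytosines more than 1 kb from a TSS had 0.647%. HypoDMCs were 60.1% of the DMCs in 3'UTRs and 58.6% of those of all cytosines. This test takes reads as independent and holds no spread between samples. With overdispersion scaling 0 DMCs were called in 3'UTRs (lowest q = 0.893), and with limma on log2 ratios also 0 (lowest q = 0.917). An unadjusted p under 0.05 was found for 1331 cytosines by the F test (3.97%, against 3.87% of all cytosines) and for 1917 by limma (5.72%, against 5.11%). The groups did not overlap at 869 3'UTR cytosines (2.59%, against 2.1% of all), of which 499 were lower in arsenic. They did not overlap at 113 of the 238 DMCs, which were chosen for a large group difference. The same share for DMCs of all cytosines is not given here, so this count is not read as a result about 3'UTRs.

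DMCs were rare where the level was near 0. A call needs at least 10 points of difference, and the part of this limit in the shares was not tested. Of cytosines below 10% methylation 0.105% were DMCs, of those at 10% to 50% 1.26% and of those at 90% or more 0.380%. Other autosomal cytosines more than 1 kb from a TSS had 0.238%, 1.04% and 0.328% in the same classes. At 20 or more CpGs, where the mean level was 8.47% and the median 1.40%, 0 of 425 cytosines were called by logistic regression. The share of all cytosines called at that density is not given here. HypoDMCs outnumbered hyperDMCs by 17 to 4 at up to 2 CpGs and by 69 to 29 at 3 to 5, while 48 of each were called at 6 to 9 CpGs. The shares of all cytosines called at these densities are not given here, so these counts are not read as a result about 3'UTRs. By distance from the stop codon the share ran from 0.506% to 0.843% with no steady order.

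HypoDMCs with large differences, among the 75 whose groups did not overlap, are given by gene. In Bcat1, which encodes a branched-chain amino acid transaminase, the cytosine 4052 bases after the stop codon was at 39.1%, 66.7%, 76.9% and 50% in control samples 1 to 4 and at 19.05%, 15.4%, 15.8% and 30% in arsenic samples 1 to 4. The lowest control lay above the highest arsenic sample by less than the range within either group. Pooled over reads it differed by -34.8 points (q = 0.00235 by logistic regression, 0.965 by limma). In Pheta1, an adaptor of endosomal trafficking, the controls were at 66.7%, 76.5%, 76.5% and 66.7% and the arsenic samples at 50%, 36.4%, 35.3% and 36%. Arsenic sample 1 stood apart from the other 3. The cytosine of Pip4k2b, a phosphoinositide kinase gene, differed by -28.9 points, and 2 of its 4 arsenic samples, at 76.9% and 75%, were closer to the controls, which ran from 87.0% to 95.7%. In Cbarp, a regulator of calcium channels, the cytosine differed by -28.6 points, from 81.3% ± 13.0 to 50.3% ± 14.9 (SD, n = 4 each).

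The hyperDMC with the lowest q, 1.88e-06 by logistic regression, was in Ccer1, a gene of late male germ cells, 24 bases after the stop codon. Its controls were at 59.1%, 46.2%, 68.4% and 50% and its arsenic samples at 100%, 100%, 93.3% and 92.3%. The difference pooled over reads was 39.2 points, and the 3 other cytosines of this 3'UTR were also higher in arsenic, with a median of 21.2 points and 0 of them called by logistic regression. In Stc2, a secreted glycoprotein gene, the difference was 33.9 points, from 49.2% ± 14.1 to 83.4% ± 14.6 (SD, n = 4 each), and 12 of the 18 other cytosines were higher. Habp2, a plasma serine protease gene, had 31.1 points, from 46.4% ± 12.5 to 80.7% ± 15.5, and 18 of its 29 other cytosines were lower. In Lhfpl4, which encodes a partner of GABA-A receptors, the cytosine 5 bases after the stop codon was at 12%, 0%, 13.3% and 22.2% in controls and 25%, 57.6%, 41.7% and 45.5% in arsenic samples. The highest control was within 3 points of the lowest arsenic sample. Atg12, of the autophagy conjugation system, had a cytosine on chromosome 18 at position 46733876 that differed by 29.1 points, from 57.0% ± 8.20 to 87.5% ± 13.2. The 1 other covered cytosine of this 3'UTR went the other way, by -11.9 points, and was not called. Of these 9 calls by logistic regression, 7 did not keep q of at most 0.01 when some single sample was left out (highest q = 0.0673, in Habp2 without control sample 3), and those in Ccer1 and Atg12 did. Coverage at these 9 cytosines was between 10 and 51 reads per sample.

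**Figure D5:**
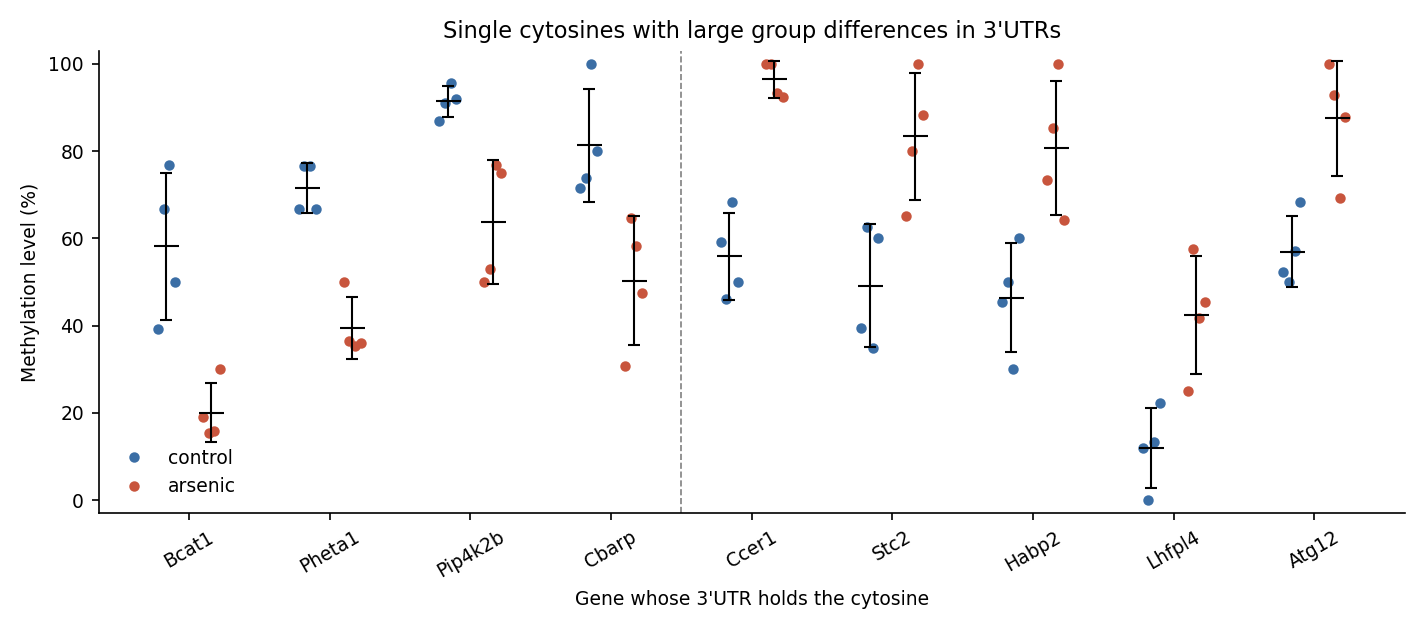
Methylation level (%) of 9 single 3'UTR cytosines with large differences among DMCs whose groups do not overlap, 4 lower (left of the dashed line) and 5 higher in arsenic. Points are samples, bars are the group mean ± SD (n = 4). The samples of a group spread widely, as in Bcat1, where the controls run from 39.1% to 76.9%, and the cytosines were chosen for the gap between the groups.

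The other strand of the same CpG gives another measurement from other reads. For all 18763 3'UTR cytosines whose partner on the other strand was covered, the mean levels of the 2 strands correlated across cytosines at 0.98 and the differences between the groups at 0.019, which are descriptions. Of the 238 DMCs 170 had a covered partner. The partner differed in the same direction in 91 (53.5%) and was itself called in the same direction in 2, which are each other's partner in Drd1. The 99 hypoDMCs with a partner had a median difference of -15.4 points and their partners -0.378, and the 71 hyperDMCs had 15.02 points and their partners 0.513. In Pheta1 the partner was at 47.1% in controls and 47.2% in arsenic samples. In Habp2 it was at 62.5% and 76.0%, in the direction of the DMC, with q = 0.462 by logistic regression.

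The DMCs lay in 211 genes, mostly 1 to a gene. At least 2 were in 22 genes, all in the same direction in 14 of these, and at least 3 in 4 genes, of which 3 are named here for this count. In Drd1, a dopamine receptor gene, 3 of 6 cytosines were hypoDMCs, 2 of them on the 2 strands of 1 CpG, with differences of -16.7, -12.5 and -21.0 points. Its mean level was 70.1%, 67.6%, 67.1% and 70.3% in controls and 64.7%, 64.8%, 62.2% and 57.6% in arsenic samples. These means did not overlap, but the pooled reads did, and the 3'UTR as a whole did not pass (q = 0.977 by the F test). Fbxo31, an F-box protein gene, had 2 hypoDMCs and 1 hyperDMC, and Lrit3, a retinal membrane protein gene, had 1 and 2.

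Whole 3'UTRs were tested on reads summed over their cytosines, together with 1 kb windows of the rest of the genome (198571 features in all), with an F test on logistic regression scaled for overdispersion. Of 3058 3'UTRs 0 were lower (0% of all features) and 0 higher (0% of all features) at q of at most 0.01 and 10 points, with a lowest q of 0.977. An unadjusted p under 0.05 was found for 138 3'UTRs (4.51%), against 4.51% of all features, 90 of them lower and 48 higher. With limma 0 were called and 153 had an unadjusted p under 0.05 (5.003%, against 5.35% of all features). Without overdispersion scaling, where reads are taken as independent, 5 were lower and 8 higher. The share of all features called that way is not given here, so these counts are not read as a result about 3'UTRs. The groups did not overlap in 106 3'UTRs (3.47%, against 3.11% of all features), of which 65 were lower. The difference was within 2 points in 1869 3'UTRs (61.1%) and at least 10 points in 18, 9 in each direction. The median over 3'UTRs was -0.311 points and over all features -0.284.

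The 3'UTRs with the lowest p among those without overlap are given with the level of their summed reads, and none passed adjustment (q = 0.977 by the F test for each). Kcmf1, a ubiquitin ligase gene, with 8 cytosines in chr6:72841237-72841529, was at 45.3%, 36.1%, 32.7% and 39.4% in controls and 22.9%, 31.5%, 26.0% and 21.0% in arsenic samples. Its pooled difference was -13.8 points, the largest of the 10, and the lowest control and the highest arsenic sample were 32.7% and 31.5%. Bcl2l13, a mitochondrial protein of the Bcl-2 family, went from 74.9% ± 2.29 to 69.4% ± 1.16 and Abca5, a lysosomal transporter gene, from 86.8% ± 1.00 to 80.3% ± 2.98 (SD, n = 4 each). Bod1, which acts in chromosome biorientation, went from 95.2% ± 0.657 to 92.0% ± 1.21, and 1110032F04Rik from 4.25% ± 1.49 to 1.60% ± 0.379.

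Higher in arsenic was Spef1, a microtubule-binding protein of the sperm flagellum, with 41 cytosines in chr2:131171390-131171664. Its controls were at 5.51%, 6.95%, 6.05% and 7.52% and its arsenic samples at 10.7%, 8.62%, 11.3% and 14.2%. All 4 arsenic samples lay above the controls, at a low level in both groups. C130074G19Rik went from 38.8% ± 2.58 to 47.8% ± 2.45 and Mylip, a ubiquitin ligase gene, from 86.0% ± 1.38 to 92.0% ± 1.43. Pik3cd, a phosphoinositide 3-kinase subunit gene of white blood cells, went from 86.0% ± 0.572 to 88.5% ± 0.673 over 44 cytosines, and the sorting nexin gene Snx24 from 92.5% ± 0.689 to 94.3% ± 0.642 (SD, n = 4 each). When each cytosine counted the same, Pik3cd was at 84.4% in controls and 84.7% in arsenic samples and C130074G19Rik at 34.4% and 38.9%, and the groups overlapped in both.

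In the gene lists 0 3'UTRs were called in any list by the F test. Pax7 was the one gene with an unadjusted p under 0.05, which 4.51% of all features had. Pax7, a paired box transcription factor of rare stem spermatogonia, had 18 cytosines at means of 74.6%, 75.8%, 75.1% and 71.7% in controls and 67.9%, 67.2%, 67.7% and 68.7% in arsenic samples. All 4 arsenic samples were below the controls. These means differed by -6.42 points and the pooled reads by -4.80 points (q = 0.977 by the F test). Of the 12 covered spermatogonial genes 7 were lower and 5 higher, with a median of -0.296 points against -0.314 for all 3'UTRs, where 1724 were lower and 1334 higher. The 8 genes of 3'UTR binding and decay had 3 lower and 5 higher (median 0.0947 points), the 4 DNA methylation genes 1 and 3 (0.470), the 5 imprinted genes 3 and 2 (-0.428), and both cleavage and polyadenylation genes were lower (-0.778). The 80 3'UTRs of developmental transcription factors had a median difference of -0.0167 points, with 40 lower and 40 higher.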

How the data were processed

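The values deposited by the authors are counts without normalization: for each sample, how many reads covered a cytosine and how many of them read C or T. Per the labels, Trim Galore 0.6.5, Bismark 0.22.3 and methylKit 1.22.0 are in the submitters' processing notes and the build is mm10. Strands were not joined, and every cytosine had at least 10 reads in every sample. Reads were not realigned, and prospermatogonia and sperm were not used here.

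Positions were matched to RefSeq GRCm38, where 100% were a cytosine. Coding sequence and TSSs of all annotated transcripts, predicted ones included, were used for the filters. Distances are in spliced bases of the curated transcript. The members and lists were chosen with earlier results of these data known. Means of samples were tested by two-sided exact permutation and contrasts within samples by exact sign flips over the 8 samples, with Benjamini-Hochberg adjustment. DMCs were called with the likelihood-ratio form of the logistic regression on pooled counts, over all 2130064 cytosines. methylKit and its region caller were not run. Regions were 3'UTRs and 1 kb windows with at least 3 cytosines, tested with an F test after overdispersion scaling. limma 3.58.1 in R 4.3.3 was run on log2 ratios with a pseudocount of 1. Other steps used Python 3.11.15, matplotlib 3.10.9, scipy 1.17.1, numpy 2.4.6 and pandas 2.3.3. The scripts were tested on simulated data.

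Genes were named by a rule: the 5 hypoDMCs and 5 hyperDMCs with the largest pooled difference and the 5 lower and 5 higher 3'UTRs of at least 5 cytosines with the lowest F test p, each without overlap of the groups. The 6 genes with most cytosines, the 5 lowest and 5 highest levels among genes with at least 20, and up to 4 covered genes of each list were named as well. The 5 lists were spermatogonial genes, cleavage and polyadenylation, 3'UTR binding and decay, DNA methylation and imprinted genes. The genes with the widest gap between 3'UTR and coding sequence, those with at least 3 DMCs and the transcription factor families fall outside this rule. Some genes that these rules name are not reported here. Pools are the replicates, so that p-values measure the spread between pools.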

Additional observations from a re-analysis of the deposited data

Results flagged for a closer look

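In 150 groups of 4 samples, the values of the regions, classes, single cytosines and 3'UTRs given above, 9 had a sample that stood apart from the other 3 by Dixon's ratio, where chance alone gives about 1 in 20 groups (7.5 of 150). At the Pheta1 cytosine arsenic sample 1 was at 50% and the others at 35.3% to 36.4%. Arsenic sample 4 stood apart in Crtc3 (52.1% against 56.3% to 56.8%) and Gm13889 (2.08% against 0.463% to 0.631%). Control sample 2 stood apart in Rtn2 (1.29% against 0.466% to 0.574%) and 9130019O22Rik (95.7% against 95.2% to 95.3%). Control sample 3 was low in Zdhhc23 (94.8% against 97% to 97.4%). Arsenic sample 3 was high in Six2 (3.25% against 0.400% to 0.826%) and low in Neurog3 (4.197% against 4.94% to 4.97%), and arsenic sample 1 was high in Dnmt3a (87.5% against 85.4% to 85.7%). No sample stood apart in the mean levels of the 6 regions or the 18 classes.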

How the results depend on the processing

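The levels by density, by distance from the stop codon and the transcript end, and against the coding sequence and the flank kept their direction in 88 of 88 recomputations. Their exact sign-flip p is at its smallest whenever all samples share a sign, so it says nothing of stability. The ranges were 63.1 to 71.6 points by density, -13.1 to -0.918 near against far from the stop codon, -7.79 to -4.51 for the transcript end, -3.82 to -2.21 against coding sequence and 1.71 to 4.55 against the flank. The mean difference of 3'UTRs was -0.313 points at a coverage of at least 20 and -0.327 at 30 (p = 0.0571 for each, exact permutation tests) and -0.571 with coverage-weighted means (p = 0.0857). Leaving out 1 sample gave -0.390 to -0.274 points. The change of the gap to other cytosines more than 1 kb from a TSS turned to -0.0364 points with coverage weights and to -0.0228 against all other autosomal cytosines, and its exact permutation p stayed above 0.05 in every setting.

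HypoDMCs and hyperDMCs numbered 95 and 55 at a coverage of at least 30 and 0 and 0 with overdispersion scaling or limma. With both strands summed, which counts CpGs, they were 83 and 49. Leaving out 1 sample gave 129 to 162 hypoDMCs and 83 to 105 hyperDMCs. For coverage of at least 30, summed strands, left-out samples and the replicate block below, the shares over all cytosines are not given here. Nor is the number of 3'UTR cytosines left at that coverage, so these counts are not read as a result about 3'UTRs. Whole 3'UTRs numbered 5 lower and 8 higher without overdispersion scaling, among them Kcmf1, and 0 in the other settings. For the setting without scaling, the share of all features called is not given here. Without control sample 3, Bcat1, Pheta1, Pip4k2b, Cbarp, Stc2 and Habp2 had q from 0.0127 to 0.0673, without control sample 1 Stc2 and Habp2 from 0.0111 to 0.0198, and without control sample 2 Bcat1, Pheta1 and Lhfpl4 from 0.0104 to 0.0245. Without an arsenic sample the calls lost were Pip4k2b and Cbarp (sample 1), Bcat1, Pip4k2b, Habp2 and Lhfpl4 (sample 2), Pheta1, Stc2 and Habp2 (sample 3) and Pheta1 and Stc2 (sample 4), at q of at most 0.0445. The causes were not tested.

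The labels do not say whether control and arsenic samples with the same replicate number share a litter, batch or day. The deviations of same-numbered samples correlated at -0.00624, 0.0212, -0.00100 and -0.00589, and those of differently numbered ones at -0.0138 to 0.0119. Correlations this near to 0 cannot tell whether the numbers pair the samples. With the replicate number as a block the mean difference of -0.339 points had p = 0.125 (exact sign-flip test, the smallest that 4 pairs can give), hyperDMCs fell to 59 with Habp2 lost (q = 0.0147), and it moved no other count of calls by over 1.5 times.

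Depth limits single cytosines, whose lowest coverage was 10 reads, more than means over many cytosines. Only 6.37% of 3'UTR CpG cytosines were read. Counting errors treat reads as independent molecules, which PCR copies are not.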

Other observations

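The length of the 3'UTR and its structure moved with the level as well. 3'UTRs of over 500 to 1000 bases had the lowest mean, 58.6% ± 0.154 (SD over 8 samples), those of up to 500 bases had 63.7% ± 0.251, and the mean then rose to 63.0% at over 1000 to 2000 bases and 73.0% in the longest class. The share of cytosines with 10 or more CpGs around them was 20.1% in the class with the lowest mean and 7.09% in the longest. The 1279 cytosines in 3'UTRs of several exons were at 70.5% and those in 3'UTRs of 1 exon at 65.9%. The 2115 cytosines that also lay in the span of another gene were at 63.2% and the others at 66.3%. By the same classes of length, the group difference was -0.492 points in the second longest class, without overlap of the groups, and from -0.426 to -0.159 points with overlap in the others.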
